A study of Mus musculus with 20 samples.

Results

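The transcripts of Il21, Il4, Il5, Il13 and Gata3 were followed over 20 one-colour microarrays of sorted mouse CD4 T cells. All probes whose gene name in the scanner files is one of these 5 symbols were taken, which gave 1 probe per gene, so 5 of the 30199 gene names and 5 of the 39429 probes on the array. A total of 4 of the 5 probes, all but Il5, were detected well enough to be tested, as were 22264 probes in all. Detection asked for 3 or more of a probe's 4 printed spots well above background, and a probe was tested when both arrays of some group detected it. Levels are given as normalised intensity, which is a linear scale that starts at a floor of 20 and compares a probe between arrays but not with another probe.

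All cells came from B6.Cg-Foxp3tm1Mal mice, a strain whose Foxp3 allele also makes a green fluorescent protein, so that regulatory T cells can be sorted alive. Each array held RNA of 1 sorted fraction from pooled organs, by the study's methods of 8 to 15 mice per pool and 8 to 14 weeks of age. Females and males were used in the study. Other passages of the paper give other pool sizes and ages. The paper also counts more replicates per pLN group than the labels, which were followed here. Peripheral lymph nodes (pLN) of mice immunised in the flanks with the protein KLH in Alum gave naive T cells, GL7+ follicular helper (TFH) cells, regulatory (Treg) cells and follicular regulatory (TFR) cells on day 12 (d12, 2 arrays per group) and day 25 (d25, 1 array per group). Peyer's patches (PP), the lymphoid follicles of the gut wall, gave Treg, TFR and both GL7+ and GL7- TFH cells (2 arrays per group), and while the study's methods describe both organs as taken after immunisation, the labels of these samples name neither an immunisation nor a day. Sorting used GFP, PD1 and GL7, so TFH cells were GFP- PD1hi, TFR cells GFP+ PD1hi whether GL7+ or GL7-, Treg cells GFP+ PD1lo and naive cells GFP- PD1lo. GL7 is a surface epitope that germinal centre B cells and a part of the T cells carry. Naive cells of this gate were not sorted on a naive marker such as CD62L, and PP naive cells were not analysed here.

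IL-21 and IL-4 are the cytokines by which TFH cells act on germinal centre B cells: IL-21 drives proliferation and plasma cell formation through a receptor that signals over STAT3, and IL-4 supports survival and class switching over STAT6. IL-4, IL-5 and IL-13 are also the signature cytokines of T helper type 2 (Th2) cells. Their genes lie in 1 cluster, in which the order in the mouse annotation is Il4, Il13, Rad50, Il5. GATA3 is the transcription factor that opens this cluster in Th2 cells, and all CD4 T cells and Treg cells need some of it.

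The 20 arrays were run on 5 slides of 4. Slides 1 and 2 each held 1 array of the 4 pLN groups of d12, slide 3 the pLN groups of d25, and slides 4 and 5 each held 1 array of the 4 PP groups. Replicate numbers therefore go with slides, and tissue, and likewise day, cannot be told apart from slide. Between 43.0 and 58.0% of the probes were detected per array and 0 were saturated. The local background lay between 24 and 78, except for 268 on the second pLN TFR array of d12. The labelled cell types held their markers: 6 of 6 CD4 T cell genes with a probe were detected on every array, and Foxp3 read 13409 to 35129 in the Treg and TFR groups against 27 to 192 elsewhere. On slide 4 the summed intensity of 12 B cell genes was 25267 to 175634, against 6597 to 15261 on slide 5 and 4661 to 26486 on the pLN slides, and that of 7 epithelial genes was 3207 to 8085 against 829 to 2370 on slide 5. PP results of the members are therefore also given without slide 4 where that changes them. Genes other than the members were not checked in that way. In sorted bulk RNA, fewer cells that make a transcript and less transcript per cell cannot be told apart.

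Of the array's 5 member probes, the Il4 probe is the one that lies in coding sequence, near its end. It is shown because Il4, unlike Il13 and Il5, was detected on every array. The probe lies on the minus strand of chr11:53426076-53426135 (mm9).
Il4 probe: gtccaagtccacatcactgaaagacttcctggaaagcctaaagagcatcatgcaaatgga
The other probes are in the last part of their transcripts, for Il21 at chr3:37121681-37121740, for Il13 at chr11:53444828-53444887, for Il5 at chr11:53538468-53538527 and for Gata3 at chr2:9779551-9779610 (mm9).

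The 120 bases before the RefSeq transcription start (GRCm38.p6) of the 4 cytokine genes are shown so that Il4 can be set beside Il13 and Il5, the genes of its cluster, and beside Il21. Capitals mark GGAAA, the core read by NFAT factors, GATA, the core read by GATA factors, and TGCTGA, part of the site of MAF factors, each on either strand; no 2 of these motifs overlap here.
Il21 (chr3:37232637-37232756, minus strand): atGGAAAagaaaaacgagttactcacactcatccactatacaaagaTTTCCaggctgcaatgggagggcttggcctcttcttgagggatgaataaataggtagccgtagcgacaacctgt
Il4 (chr11:53618666-53618785, minus strand): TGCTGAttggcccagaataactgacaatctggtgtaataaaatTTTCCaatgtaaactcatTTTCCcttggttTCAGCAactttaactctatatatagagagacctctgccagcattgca
Il13 (chr11:53634703-53634822, minus strand): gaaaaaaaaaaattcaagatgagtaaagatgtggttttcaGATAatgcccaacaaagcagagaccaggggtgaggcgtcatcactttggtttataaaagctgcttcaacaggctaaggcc
Il5 (chr11:53720674-53720793, plus strand): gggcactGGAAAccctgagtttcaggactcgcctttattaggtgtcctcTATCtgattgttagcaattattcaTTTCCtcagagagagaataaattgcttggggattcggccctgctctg
Il4 carried 2 GGAAA and 2 TGCTGA motifs in this window, Il21 carried 2 GGAAA, Il5 carried 2 GGAAA and 1 GATA, and Il13 carried 1 GATA. Over 32851 mouse promoters, 31.0% of windows of this length held GGAAA and 6.25% held at least 2, 29.5% held GATA, and 8.18% held TGCTGA and 0.466% at least 2. A match of letters is a description of the window and not evidence of binding.

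Il21 was high in every TFH fraction, lower in PP TFR cells and far lower in pLN TFR cells. In pLN of d12 the intensity was 17879 and 16636 in TFH cells, 429 and 373 in TFR cells, 188 on 1 naive array and 64.9, not detected, on the other, and at the floor of 20 on both Treg arrays. PP GL7+ TFH cells read 17168 and 15163, GL7- TFH cells 14409 and 13435, TFR cells 4759 and 3489, and Treg cells 92.8 and 81.6. On d25 the single arrays read 15019 in TFH cells, 914 in TFR cells and 103 (not detected) in naive cells, with Treg cells at the floor. The TFH arrays of both tissues thus lay within 13435 to 17879, above every TFR array, and the PP TFR arrays lay above every pLN TFR array. Ordered from the highest mean, the groups were pLN TFH d12, PP GL7+ TFH, pLN TFH d25, PP GL7- TFH, PP TFR, pLN TFR d25, pLN TFR d12, naive d12, naive d25, PP Treg and the pLN Treg groups. Neighbours in this order whose arrays overlapped were pLN TFH d12 with PP GL7+ TFH and the naive groups of both days.

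**Figure D1:**
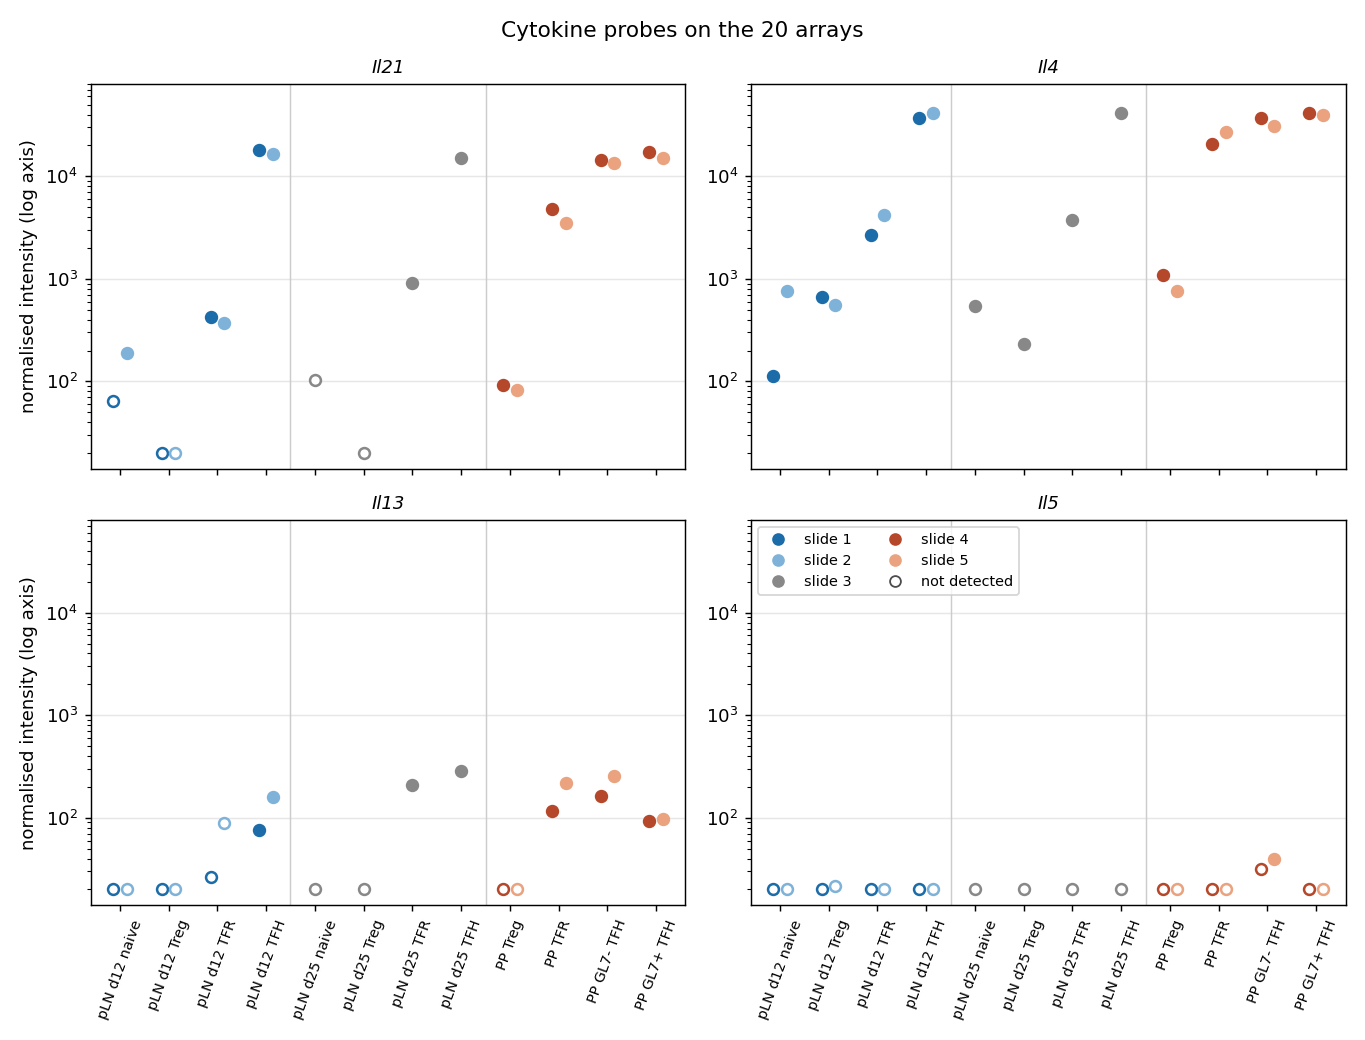
Normalised intensity (log axis) of Il21, Il4, Il13 and Il5 on each of the 20 arrays by sorted group, where filled points are detected values and open points are values that were not detected. Il21 and Il4 reach 13435 and 30660 or more on every TFH array, Il13 stays at or below 285, and Il5 is detected on 1 array.

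Differences were tested on the log2 scale with limma in 1 model of all 12 groups, and a difference was called when the Benjamini-Hochberg adjusted p over the 22264 tested probes was below 0.05 and the difference was at least 2-fold. The fractions were pools, so the p-values measure spread between pools, with 1 estimate per probe shared by all comparisons. For Il4 the log2 SD within a group was 1.94 in d12 naive cells and at most 0.44 in any other group of 2. For Il21 it was 1.09 in d12 naive cells and at most 0.32 elsewhere. The naive arrays thus widened the intervals of both genes in comparisons without naive cells too. A group at the floor on both arrays added no spread. Between pLN TFH and naive cells 3 of the 4 tested members were called, all higher in TFH cells, against 14.7% of all tested probes. For Il21 this difference was 7.29 ± 0.38 (SE, log2; adjusted p = 1.90e-06), with 1 of the 2 naive arrays not detected. Between pLN TFR and Treg cells 2 members were called, both higher in TFR cells, against 8.35% of probes. Il21 was at least 9.41-fold higher (adjusted p = 2.04e-04), where the bound takes the lowest detected level of any probe on the array in place of the Treg floor. Such bounds, here and below, are approximate, because an undetected probe can read above that level. On 1 naive array Il21 read 64.9, not detected, where the lowest detected level was 41.1. Between pLN TFR and TFH cells 2 members were called, both lower in TFR cells, against 5.01% of probes. Il21 fell by 5.43 on the log2 scale in that comparison (adjusted p = 3.73e-05), and its values on slides 1 and 2 were -5.38 and -5.48.

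In PP the same steps had other sizes. Between TFR and Treg cells 3 members were called, all higher in TFR cells, against 9.25% of probes, and between GL7+ TFH and Treg cells 3 were called, all higher in TFH cells, against 9.87%. The Il21 differences were 5.55 (adjusted p = 2.92e-05) and 7.53 (adjusted p = 2.11e-06). Between TFR and GL7+ TFH cells 1 member was called against 3.44% of probes, and this was Il21, which was lower in TFR cells by 1.99 (95% interval of the difference -2.84 to -1.13; adjusted p = 0.0166), with -1.85 on slide 4 and -2.12 on slide 5. Without slide 4 this call was lost (-2.12, adjusted p = 0.35), as it was without either GL7+ TFH array (-1.90 and -2.07) or the second TFR array (-1.76).

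Set tissue against tissue, TFR cells differed and GL7+ TFH cells were not shown to. Between PP and pLN TFR cells of d12, 2 members were called, both higher in PP, against 11.1% of probes, and between PP and pLN GL7+ TFH cells 0 of 4 were called against 4.54% of probes (limma; 0 of 4 also at an unadjusted p under 0.05). PP TFR cells held more Il21 by 3.35 on the log2 scale (2.49 to 4.21; adjusted p = 6.32e-04), and without slide 4 the value was 3.13 (adjusted p = 0.033). In GL7+ TFH cells the Il21 difference was -0.10, with an interval of -0.95 to 0.76 (adjusted p = 0.941). In Treg cells 1 member was called, against 2.24% of probes: Il21 was at least 2.05-fold higher in PP (adjusted p = 0.0183), a call that was lost without slide 4 (adjusted p = 0.17) and without any 1 of the 4 arrays (2.03 to 2.21). Whether the gap from TFR to GL7+ TFH differed between tissues was tested too, and this called 1 of 4 members against 0.611% of probes, Il21 at 3.45 ± 0.54 (2.24 to 4.66; adjusted p = 0.0254), while the same test on the step from Treg to TFR called 0 of 4 against 0.548% (limma; 3 of 4 had an unadjusted p under 0.05), with Il21 at 1.23 (adjusted p = 0.598). Since both pLN Treg arrays lay at the floor for Il21, this value depends on the floor: it was 3.35 and called with a floor of 100 (adjusted p = 1.92e-03) and 2.08 with normexp (adjusted p = 0.0338). A floor of 100 also raises the PP Treg arrays, which read 92.8 and 81.6. The value of 3.35 is then the difference between PP and pLN TFR cells alone and does not test the step. Without slide 4 the gap differed by 3.31 (adjusted p = 0.39), and the call was also lost without any 1 of the 8 arrays (3.22 to 3.67). These comparisons share groups and are not independent of one another.

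Il4, too, was highest in TFH cells, followed by PP TFR cells and then pLN TFR cells. In pLN of d12 it read 37251 and 41531 in TFH cells, 2697 and 4169 in TFR cells, 668 and 555 in Treg cells, and 114 and 763 in naive cells. In PP it read 41018 and 40009 in GL7+ TFH cells, 37291 and 30660 in GL7- TFH cells, 20574 and 27193 in TFR cells, and 1085 and 762 in Treg cells. The d25 arrays read 41849 in TFH, 3715 in TFR, 544 in naive and 234 in Treg cells. All 20 arrays detected Il4. Every TFH array lay above every PP TFR array and every PP TFR array above every pLN TFR array, and the naive arrays of d12 overlapped the Treg arrays. In the order of means pLN TFH d25 came first and overlapped no other group. Arrays overlapped between PP GL7+ TFH and pLN TFH d12, between pLN TFH d12 and PP GL7- TFH, and between the pLN TFR groups of both days. The d12 naive group overlapped d25 naive cells, both pLN Treg groups and, narrowly, PP Treg cells.

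Against naive cells, Il4 was higher in pLN TFH cells by 7.06 ± 0.66 (log2; adjusted p = 4.84e-05). The naive arrays themselves lay 2.74 apart for Il4 and 1.54 for Il21, and 0.539 and 3.36% of tested probes differed by as much between these 2 arrays. Between pLN Treg and naive cells 1 of 4 members was called against 3.76% of probes. This was Il21, with a log2 difference of -2.47 (limma, adjusted p = 4.42e-03). Both Treg arrays and 1 naive array did not detect Il21, so this value depends on the floor and gives no bound. Over 11 alternatives the Il21 difference ran from -3.23 to -0.456, and 2 of them lost the call. Il4 differed by 2.55 on slide 1 and -0.46 on slide 2 (1.04, -0.43 to 2.51; adjusted p = 0.785). Without the first naive array the Il4 difference was -0.33, and without the second it was 2.41 and called (adjusted p = 3.84e-03). Il4 was higher in pLN TFR than in Treg cells by 2.46 (0.99 to 3.93; adjusted p = 0.0381), and this call was lost when any 1 of the 4 arrays was left out (2.15 to 2.78).

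pLN TFR cells held less Il4 than TFH cells, with a log2 difference of -3.55 (adjusted p = 0.0103), which was -3.79 on slide 1 and -3.32 on slide 2. This call was lost without either TFH array (-3.63 and -3.47) or the first TFR array (-3.24). The PP slides gave -0.995 and -0.56 for TFR against GL7+ TFH cells, and this difference of -0.78 was not called, its interval running from -2.25 to 0.69 (adjusted p = 0.964). PP TFR cells held more Il4 than PP Treg cells by 4.70 (adjusted p = 1.20e-03) and than pLN TFR cells by 2.82 (1.35 to 4.29; adjusted p = 0.0171). Without slide 4 these were 5.16 (adjusted p = 0.085) and 3.02 (adjusted p = 0.14) and no longer called, as was the difference between GL7+ TFH and Treg cells, 5.48 (adjusted p = 3.85e-04) with all arrays and 5.71 (adjusted p = 0.061) without. The difference between PP and pLN TFR cells was also not called without any 1 of the 4 arrays (2.50 to 3.13). PP and pLN GL7+ TFH cells differed by 0.04 (-1.43 to 1.51; adjusted p = 0.988). The test between tissues of the gap from TFR to GL7+ TFH gave 2.78 for Il4 (0.70 to 4.85; adjusted p = 0.425), so that a difference of this gap between tissues was not shown for Il4.

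**Figure D2:**
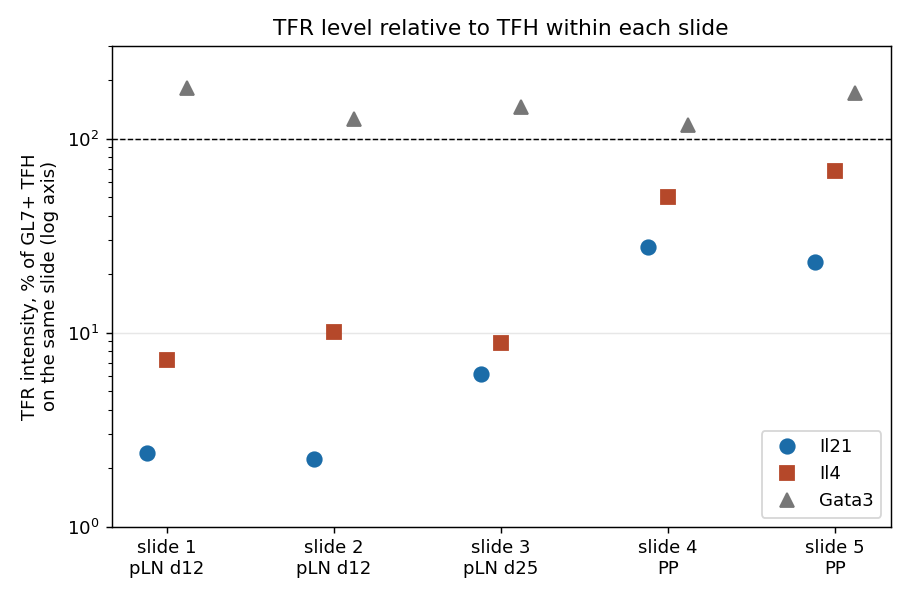
Intensity of TFR cells as a percent of GL7+ TFH cells on the same slide (log axis) for members that include Il21, Il4 and Gata3, with 1 point per slide. Il21 lies at 2.24 to 6.09% on the pLN slides and at 23.0 and 27.7% on the PP slides, and Il4 at 7.24 to 10.04% and at 50.2 and 68.0%.

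Read as a share within a slide, Il21 in TFR cells was 2.40 and 2.24% of the TFH level on the d12 slides, 6.09% on d25, and 27.7 and 23.0% on the PP slides. For Il4 these shares were 7.24, 10.04, 8.88, 50.2 and 68.0%. No PP share overlapped a pLN share in either gene. Relative to Treg cells of the same slide, Il4 in TFR cells was 4.04-fold and 7.52-fold higher on the d12 slides, 15.9-fold on d25, and 19.0-fold and 35.7-fold in PP. Because the TFH arrays lay close together in Il4, these shares followed the TFR level. B cell genes on slide 4 summed highest, to 13.2 times the slide 5 value for TFR cells and to 2.92 to 7.78 times for the other PP groups. The lower of the PP shares for Il4 and the higher for Il21 came from that slide.

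Il13, whose product acts mainly on epithelium and macrophages, was dim throughout and not detected on any naive or Treg array. In TFH cells it read 75.2 and 158 in pLN of d12, 285 on d25, 94.1 and 96.6 in PP GL7+ cells, and 164 and 257 in PP GL7- cells. PP TFR cells read 115 and 216 and d25 TFR cells 208. The d12 TFR arrays, 26.6 and 88.5, did not detect it, and naive and Treg arrays lay at 20 to 20.4, also not detected. Every detected value thus came from a TFH or TFR fraction. Il13 was at least 1.77-fold higher in pLN TFH than in naive cells (adjusted p = 8.63e-03), at least 4.66-fold higher in PP TFR than in Treg cells (adjusted p = 4.77e-03) and at least 2.81-fold higher in PP GL7+ TFH than in Treg cells (adjusted p = 0.0186). The latter 2 calls were lost without slide 4 (adjusted p = 0.11 and 0.25), the last also without any 1 of its 4 arrays (2.23 to 2.27), and the first without the first naive array (2.42) or the second TFH array (1.90). PP TFR and GL7+ TFH cells differed by 0.73 (adjusted p = 0.878), with TFR at 123 and 224% of the TFH level on the 2 slides, and PP exceeded pLN TFR cells by at least 2.86-fold without passing the test (adjusted p = 0.0547), while without the second pLN TFR array the log2 difference was 2.57 and called (adjusted p = 0.0145). Against pLN Treg cells, both groups being below background, Il13 of pLN TFR cells differed by 1.28 on the log2 scale and was not called. With slide as a fixed block it was called, and without the first TFR array the difference was 2.15.

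The GL7 state of PP TFH cells was not shown to go with the level of any member. Between GL7+ and GL7- TFH cells 0 of 4 members were called against 0.00898% of probes, which is 2 probes (limma; 0 of 4 at an unadjusted p under 0.05 and 0 of 4 by the test of 2 groups that the methods name). GL7- cells held 83.9 and 88.6% of the Il21 level of GL7+ cells on the 2 slides (log2 difference of GL7+ over GL7- 0.21, -0.64 to 1.07) and 90.9 and 76.6% of the Il4 level (0.26, -1.21 to 1.73). Il13 was higher in GL7- cells on both slides, at 174 and 266% of GL7+ cells, and its arrays did not overlap (-1.10, -2.29 to 0.08; adjusted p = 1 in limma). Of the list of other cytokines given below, Il17a was the gene called here, and it was at least 11.8-fold higher in GL7- cells (adjusted p = 7.72e-03).

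Il5, the eosinophil growth factor of the cluster, was at the floor of 20 on 17 of 20 arrays. It read 21.7 on 1 pLN Treg array of d12 and 31.9 and 39.5 on the 2 arrays of PP GL7- TFH cells. The value of 39.5, with 3 of 4 spots above background, was the 1 detected value in the data, and Il5 entered no test.

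Gata3 was detected on every array, and its arrays of 1 group lay far apart between slides. In pLN of d12 it read 3604 and 6726 in naive, 5867 and 9023 in Treg, 5679 and 11823 in TFH, and 10320 and 14933 in TFR cells. On d25 it read 6177, 7935, 8461 and 12259 in the same order. PP GL7+ TFH cells read 3740 and 9050, GL7- TFH cells 4542 and 8925, Treg cells 5120 and 11259, and TFR cells 4368 and 15520. The second array was higher in 8 of 8 groups, by a mean of 1.04 on the log2 scale and by 0.53 to 1.83 in single groups. A mean replicate difference of this size or larger was found for 6.15% of tested probes, and 40.0% of probes had the same sign in all 8 groups, so other probes shared a shift between slides.

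**Figure D3:**
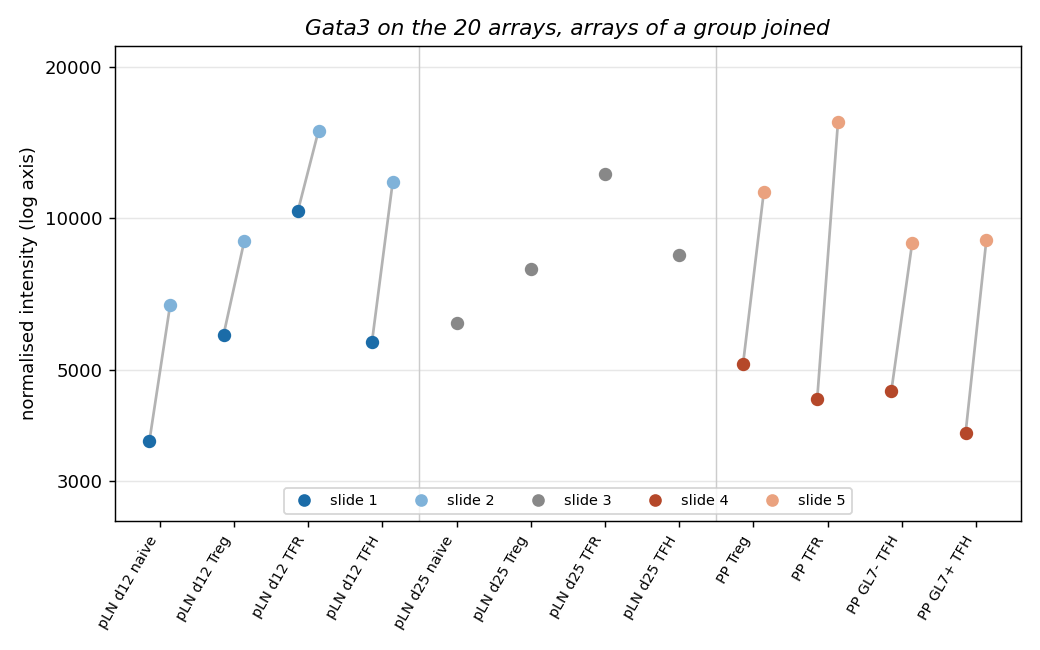
Gata3 intensity (log axis) on each array. On slides 1 to 3 the TFR array is the highest of the 4, at 10320, 14933 and 12259, and slide 4 lies below slide 5 in all 4 PP groups.

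None of the 15 comparisons called Gata3 (limma; differences from -0.65 to 0.77). The SE was 0.71 in the 11 differences between groups of 2 arrays, 0.867 in those of d25 against d12 and 1.001 in the tissue differences. Within the 3 pLN slides the naive array was lowest and the TFR array highest each time. With slide as a block the SE of differences within a tissue fell to 0.20, and pLN TFH exceeded naive cells by 0.73 (adjusted p = 0.0162) and TFR exceeded Treg cells by 0.77 (adjusted p = 0.0169). Both differences stayed below the 2-fold limit of a call. In the same fit Treg and naive cells differed by 0.56 (adjusted p = 0.110), pLN TFR and TFH cells by 0.60 (adjusted p = 0.0667) and PP TFR and Treg cells by 0.12 (adjusted p = 0.683), the latter with -0.23 on slide 4 and 0.46 on slide 5.

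**Figure D4:**
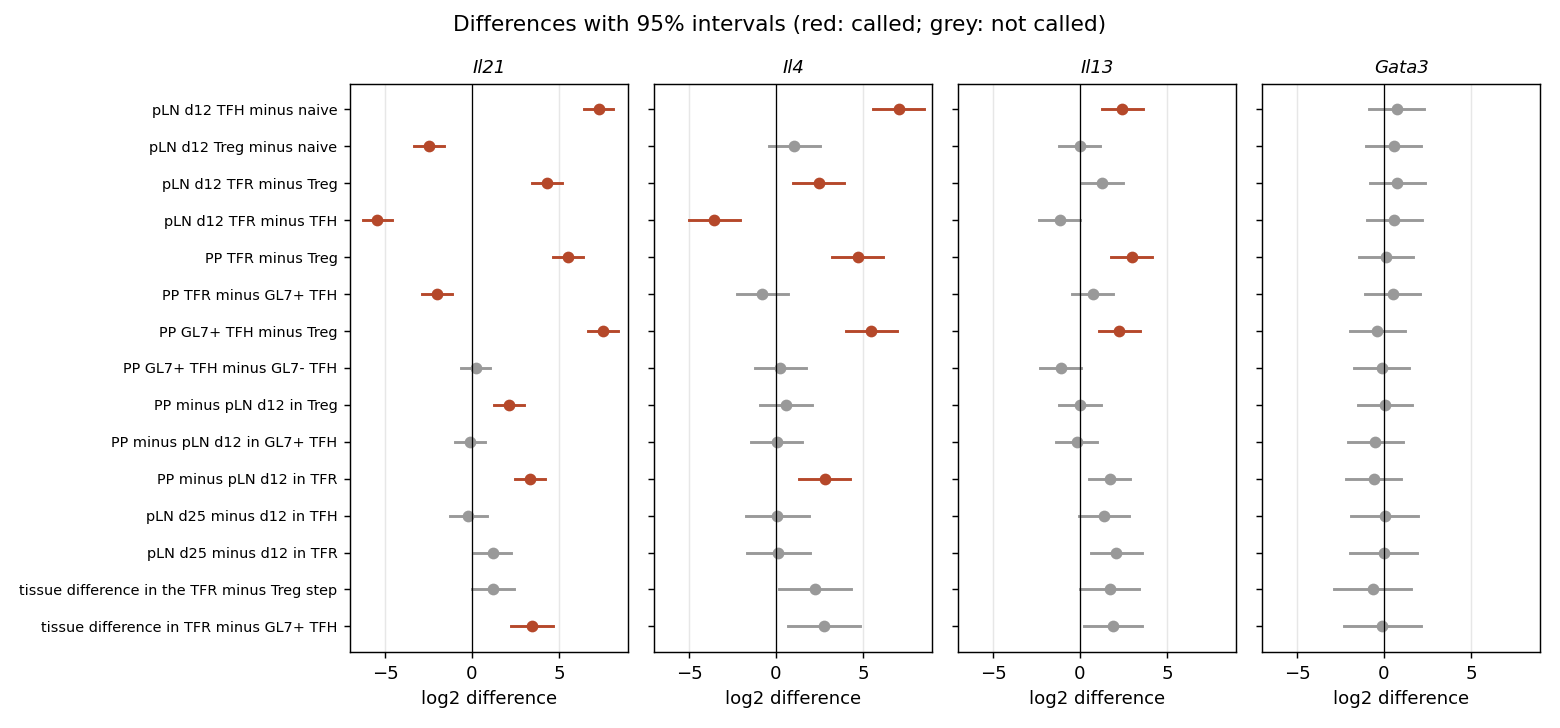
Log2 differences of the 4 tested members in the 15 comparisons with their 95% intervals and the called differences marked. Il21 is called in 10 comparisons, Il4 in 6, Il13 in 3 and Gata3 in 0.

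Between d12 and d25 no member was called. The background was 0.0314% of probes in TFH cells, or 7 probes, and 0.00898% in TFR cells, or 2 probes (limma; 0 of 4 and 2 of 4 members had an unadjusted p under 0.05). In TFH cells Il21 differed by -0.20 and Il4 by 0.09. In TFR cells Il21 was higher on d25 by 1.19 (0.15 to 2.24; adjusted p = 1 in limma) and Il4 by 0.15. Il13, detected on the d25 TFR array and on neither d12 array, was at least 3.77-fold higher there (adjusted p = 1 in limma). Each d25 group was 1 array, whose spread was taken from the groups of 2.

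Over the 12 group means, log2 values of Il21 and Il4 correlated with r = 0.971, Il21 and Il13 with 0.880, and Il4 and Il13 with 0.885. With Gata3 the values were 0.0481 for Il21, 0.151 for Il4 and 0.346 for Il13. The points share slides and the floor, and the values are a description. Among 16153 probes with a gene symbol, the patterns most like Il21 were those of Sostdc1 (r = 0.989), Morn1 (0.988), Cep43 (0.988, with a probe under its older name Fgfr1op at 0.977) and Bcl6 (0.983). For Il4 they were Tnfaip8 (0.992), Smco4 (0.992), Cebpd (0.991), Hmox1 (0.989) and H1f0 (0.987). Il13 was most like Pfn2 (0.976), Ap1s2 (0.969), Hspa13 (0.958), Pank1 (0.955) and Nfe2 (0.952), and Gata3 most like Fam111a (0.958), H2az1 (0.957), Il18 (0.952), Cnrip1 (0.947) and Armcx4 (0.945).

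The pathway around the members was read from lists of genes, starting with 20 transcription regulators of type 2 cytokines and Il21. All 20 were tested. In pLN TFH against naive cells 6 rose and 1 fell, in TFR against Treg cells 3 rose and 1 fell in pLN and 5 rose and 1 fell in PP. Of all tested probes 14.7, 8.35 and 9.25% were called in these comparisons. The list medians of -0.00, -0.06 and 0.12 lay near those of all tested probes, -0.09, -0.08 and -0.05. Cebpa, a CCAAT-binding factor, read 32.4 and 87.6 (not detected) in pLN naive, 350 and 165 in Treg, 3549 and 2389 in TFR and 16033 and 8316 in TFH cells of d12. In PP it read 635 and 231 in Treg, 41597 and 21442 in TFR and 38077 and 24809 in GL7+ TFH cells, so that PP TFR and TFH arrays overlapped. Cebpa was at least 188-fold higher in pLN TFH than in naive cells (adjusted p = 2.85e-05), higher in TFR than in Treg cells by 3.60 in pLN (adjusted p = 6.25e-03) and 6.29 in PP (adjusted p = 2.30e-04), and higher in PP than in pLN TFR cells by 3.36 (adjusted p = 7.92e-03).

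Maf, which binds the Il4 promoter and drives Il21, read 61486 and 43795 in pLN TFH, 14580 and 21876 in TFR, 8604 and 7236 in Treg and 686 and 1817 in naive cells of d12. In PP the levels were 72293 and 70493 in GL7+ TFH, 57245 and 63584 in TFR and 22369 and 28621 in Treg cells. Maf rose in pLN TFH against naive cells by 5.54 (adjusted p = 1.05e-05) and in PP against pLN TFR cells by 1.76 (adjusted p = 0.0147). Batf, an AP-1 factor that TFH cells need, rose in TFR against Treg cells by 1.47 in pLN and 1.98 in PP, and its PP TFR arrays, 64499 and 61871, were the highest of all. Nfil3 rose by 3.91 in pLN TFH against naive cells and by 1.75 and 1.79 in TFR against Treg cells of pLN and PP, and Irf4 rose by 2.45 in pLN TFH cells. Satb1, a chromatin organiser of the type 2 cluster, was lower in pLN TFH than in naive cells (-2.78) and in TFR than in Treg cells of pLN (-2.10) and PP (-2.14).

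Between PP and pLN TFR cells 11.1% of all probes were called. The regulator list had a median of 0.65 against 0.00 for all probes, with 0 that fell in PP and 5 that rose. Beside Cebpa and Maf these were Gfi1 (1.49), Tcf7 (1.36) and Bhlhe41, a Th2 regulator detected on the PP TFR arrays alone, at 134 and 70.6, and at the floor on the other 18. Bhlhe41 was at least 1.77-fold higher in PP than in pLN TFR cells. It entered the tests only through the PP TFR arrays, and its other groups had no spread at the floor. Its calls, here and against GL7+ TFH cells, therefore add nothing to its being detected on these arrays. In PP GL7+ TFH against Treg cells 5 regulators rose and 2 fell, and against GL7+ TFH cells PP TFR cells had 2 that rose, Bhlhe41 (at least 3.36-fold) and Nfil3 (1.56), and 2 that fell, Tcf7 (-1.29) and Ikzf1 (-1.24). In pLN TFR against TFH cells 0 rose and 3 fell, Tcf7 (-1.55), Ikzf1 (-1.40) and Gfi1 (-1.13). Of all probes 9.87% were called in PP GL7+ TFH against Treg, 3.44% in PP TFR against GL7+ TFH and 5.01% in pLN TFR against TFH cells.

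**Figure D5:**
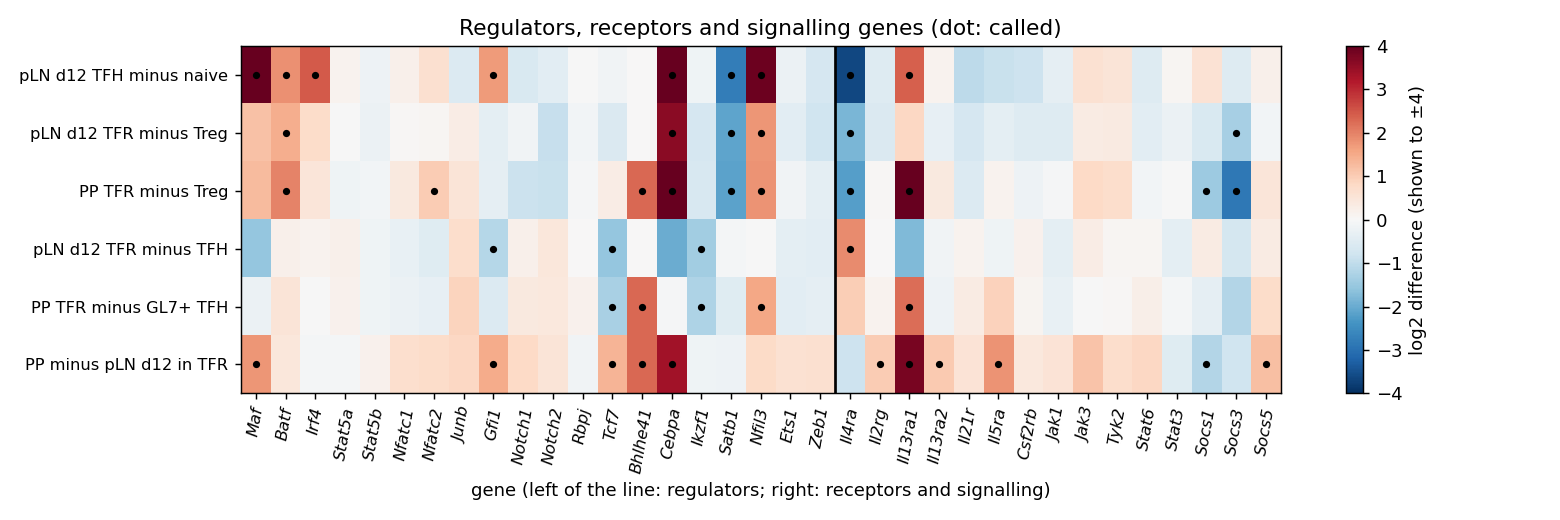
Relative log2 levels of the tested regulators and receptor genes between sorted groups. Cebpa and Maf are high in TFH groups and PP TFR cells, and Il4ra is low in TFH and TFR groups.

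Of 15 receptor and signalling genes, all tested, Il4ra and Il13ra1 passed the test in the most comparisons. Il4ra, the chain that IL-4 and IL-13 receptors share, read 334 and 349 in pLN TFH, 1102 and 1427 in TFR, 3997 and 4961 in Treg and 4600 and 3992 in naive cells of d12. In PP it read 460 and 276 in GL7+ TFH, 861 and 572 in TFR and 4179 and 2471 in Treg cells. The TFH arrays, highest in Il4, were the lowest in Il4ra. Il4ra fell by 3.65 in pLN TFH against naive cells (adjusted p = 3.45e-05), and its differences of TFR against Treg cells were -1.83 in pLN (adjusted p = 5.00e-03) and -2.19 in PP (adjusted p = 1.52e-03). Il13ra1 was highest in PP TFR cells, at 621 and 463, where it was at least 15.8-fold above PP Treg cells (adjusted p = 1.79e-04) and at least 9.77-fold above pLN TFR cells (adjusted p = 9.87e-04). The list counted 1 rise and 1 fall in pLN TFH against naive cells (median -0.35 against -0.09 for all probes), 0 and 2 in pLN and 1 and 3 in PP TFR against Treg cells, and 5 and 1 in PP against pLN TFR cells (median 0.69 against 0.00), where 11.1% of all probes were called. In the comparisons before it 14.7, 8.35 and 9.25% of all probes were called. Socs3, an inhibitor of STAT3 signalling, was lower in TFR than in Treg cells of pLN (-1.34) and PP (-2.86), and Socs1 was lower in those of PP (-1.45). Il21r was called in none of the 15 comparisons.

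Of 12 repressors of the type 2 programme 11 were tested, all but Hlx. In pLN TFH against naive cells 4 rose and 3 fell, with the largest values for Bcl6 (3.33) and Ikzf3 (2.85) and for Bach2 (-3.49) and Lef1 (-2.59). In PP TFR against Treg cells 2 rose, Bcl6 (3.19) and Zfpm1 (1.46), and 4 fell, led by Sox4 (-2.48) and Eomes (-2.32). In PP against pLN TFR cells 2 rose, Bcl6 (2.39) and Ikzf3 (1.43), and 2 fell, Sox4 (-2.22) and Tbx21 (-3.14), the latter the Th1 factor. The list medians were -1.06, -0.86 and -0.26 against -0.09, -0.05 and 0.00 for all probes, of which 14.7, 9.25 and 11.1% were called. Bcl6 is also in the follicular marker list and Foxp3 in the Treg marker list, so these genes follow the sort.

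Of 15 Th2-associated surface and effector genes 14 were tested, all but Ptgdr2. In pLN TFH against naive cells 7 rose and 0 fell, led by Penk (5.51) and Il9r (at least 9.59-fold). The list median was 1.14 against -0.09 for all probes, of which 14.7% were called. In PP GL7+ TFH against Treg cells 2 rose and 3 fell, with a median of 0.07 against 0.03 and 9.87% of all probes called. Between PP and pLN TFR cells 2 rose and 1 fell, with a median of 0.02 against 0.00 and 11.1% of all probes called. In TFR against Treg cells 5 rose and 0 fell in pLN, led by Il17rb (at least 7.34-fold) and Penk (3.51), and 6 rose and 1 fell in PP, led by Ccr8 (2.94) and Penk (2.44), with Cysltr1 lower (-1.36). The medians were 0.56 and 0.92 against -0.08 and -0.05 for all probes, of which 8.35 and 9.25% were called. Il1rl1, the IL-33 receptor, did not follow Il4 in these cells: it was higher in TFR than in TFH cells of pLN by 4.77 (adjusted p = 4.07e-04) and higher in TFR than in GL7+ TFH cells of PP (adjusted p = 1.50e-04), where the TFH arrays read 26.5, not detected, and 32.5. Between pLN TFR cells, at 3233 and 3901, and Treg cells, at 3508 and 2527, it was not called, and these arrays overlapped.

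Of 18 other T cell cytokines 15 were tested, all but Il9, Csf2 and Il31. In pLN TFH against naive cells 8 rose and 0 fell, led by Ifng (at least 29.1-fold) and Il10 (at least 14.4-fold). The list median was 2.03 against -0.09 for all probes, of which 14.7% were called. PP TFR against Treg cells had 2 that rose, Il6 (at least 2.33-fold) and Ebi3 (1.53), and 1 that fell, Il10 (-2.30), with 9.25% of all probes called. Between PP and pLN TFR cells Ifng, the Th1 cytokine, differed by -3.85 on the log2 scale (adjusted p = 2.50e-03), opposite in direction to Il4 and Il21. Of 9 genes that lie beside Il21 or the type 2 cluster, 8 were tested, all but Adad1. In pLN TFH against naive cells 3 rose and 0 fell, Il2 (3.13), Cetn4 (1.77) and Sept8 (1.34), and in PP against pLN TFR cells 0 of 8 were called (limma), with a median of 0.06. Of all probes 14.7 and 11.1% were called in these comparisons. Rad50, the gene between Il13 and Il5, was called in none of the 15 comparisons.

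Markers of other cells were read as lists. Of 8 mast cell and basophil genes 1 to 4 were detected per array, with summed intensities of 287 to 1407, and Mcpt8, Ms4a2, Prss34 and Fcer1a were detected on none. The myeloid list summed to 8259 to 32506 with 3 to 6 of 7 genes detected, and the NK and CD8 T cell list to 2356 to 6989 with 2 to 5 of 5. The part of the B cell and epithelial transcripts of slide 4 in the PP values was not tested. Values without slide 4 are given above for the members and were not read for the genes of the lists. The naive and follicular T cell lists had 5 of 5 genes detected on every array, and the 5 follicular genes summed to 35722 and 37688 on the 2 naive arrays of d12 that differed in Il4. Most of these sums comes from Icos and Sh2d1a, which read at least 12501 and 13998 on every array of any group. What set the 2 naive arrays apart in Il4 was not tested.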

How the data were processed

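The scanner files hold the intensities that Agilent Feature Extraction 10.7.3.1 made per spot, as deposited by the authors on a linear scale. AlexaFluor555-labelled cRNA from 40 or 50 ng of RNA was hybridised to an array on which each probe is printed 4 times (annotation mm9). As in the study's methods, spots flagged as outliers were left out, the processed signals of a probe were averaged, quantile normalised and multiplied so that each array's 75th percentile was 1500, with values below 20 raised to 20. The deposited value table of the authors, on a linear intensity scale too, was used as an alternative and the median absolute log2 difference from it was 0.0347 to 0.0362 per array. On 22264 probes, log2 values were fitted with limma 3.58.1 in R 4.3.3 (lmFit and eBayes, 12 group means, 8 residual degrees of freedom), two-sided, with Benjamini-Hochberg adjustment. The script was tested on simulated data. The number of arrays limits the precision. No scanner file of a sample was left out. Gene names were those of the array, and 27508 probes matched RefSeq.

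The members, the lists of regulators, receptors, repressors, Th2-associated genes, other cytokines, neighbours and markers, and the tests were chosen with earlier results of these data known. From each list the 2 genes with the largest called difference in each direction, or all genes where 5 or fewer were called, were named in some of the comparisons the text describes. Likeness was Pearson's r over the 12 group means. Alternatives were the authors' values, scaling alone, normexp with an offset of 50, no filter on dim probes, a floor of 100, slide as a block, the compared groups alone, leaving out slide 4 or single arrays, and the unpaired test of 2 groups that the methods name.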

Additional observations from a re-analysis of the deposited data

Results flagged for a closer look

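Il21 was flagged because the gap between TFR and GL7+ TFH cells differed between PP and pLN in a test of that difference itself. The gap was narrower in PP by 3.45 on the log2 scale (SE 0.54; adjusted p = 0.0254 in limma), with TFR cells at 2.40 and 2.24% of the TFH level on the 2 pLN slides of d12 and at 27.7 and 23.0% on the PP slides. The difference kept its sign in each of 16 alternatives and lost its call in 11 of them, with adjusted p from 0.0017 to 0.39, among them every fit without 1 array (3.22 to 3.67) and the fit without slide 4 (3.31, adjusted p = 0.39). Tissue and slide cannot be told apart in this comparison.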

How the results depend on the processing

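Each group of 2 arrays is small, and signals below about 20 to 144, the lowest detected level per array, give approximate bounds alone, which limits Il13, Il5 and the Treg and naive values of Il21. Over these alternatives, 613 of the single differences kept direction and side of the threshold, 66 lost and 7 gained a call, and 30 changed sign. The differences of Il21 in pLN TFH against naive cells, in pLN TFR against Treg cells, in PP GL7+ TFH against Treg cells and in PP against pLN TFR cells kept their calls in all alternatives run. The cause of the changes below was not tested, except that fits of the compared groups alone and without slide 4 have fewer arrays. The share of all tested probes called in each fit is not set beside the counts of members below. A lost or gained call is therefore not a result about the members.

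Of the 4 members, the compared groups alone gave 1 call for pLN TFH against naive cells, 0 for Treg against naive, 1 for pLN TFR against Treg, 0 for pLN TFR against TFH, 0 for PP TFR against Treg, 0 for PP TFR against GL7+ TFH, 0 for PP against pLN Treg and 0 for the tissue difference of TFR against GL7+ TFH. Without slide 4 there was 1 call for PP TFR against Treg, 0 for PP TFR against GL7+ TFH, 1 for PP GL7+ TFH against Treg, 0 for PP against pLN Treg, 1 for PP against pLN TFR and 0 for the tissue difference of TFR against GL7+ TFH. Without the filter on dim probes there was 1 call for pLN TFR against Treg, 0 for PP TFR against GL7+ TFH and 0 for the tissue difference of TFR against GL7+ TFH. A floor of 100 left 0 calls for pLN Treg against naive, 1 for pLN TFR against Treg and 0 for PP against pLN Treg, and gave 1 for the tissue difference of TFR against Treg, as did normexp, which left 0 for PP against pLN Treg. With a floor of 100 the Treg arrays of both tissues were equal for Il21, so that 1 call is the difference between TFR cells alone. With slide as a random block there were 0 calls for PP against pLN Treg and 1 for PP against pLN TFR.

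Leaving out 1 array at a time gave 1 to 2 calls for pLN Treg against naive, pLN TFR against Treg, pLN TFR against TFH and PP against pLN TFR, 2 to 3 for pLN TFH against naive, 0 to 1 for PP TFR against GL7+ TFH, and 0 to 0 for PP against pLN Treg and for the tissue difference of TFR against GL7+ TFH. Such fits moved Il4 from -0.33 to 2.41 in pLN Treg against naive, from -0.036 to 0.12 in PP against pLN GL7+ TFH and from -0.17 to 0.46 in d25 against d12 TFR, and Il13 from -0.73 to 0.34 in PP against pLN GL7+ TFH. Gata3, called in none, moved from -0.80 to 1.03 in PP TFR against Treg, from -0.41 to 1.416 in PP TFR against GL7+ TFH, from -1.02 to 0.25 in PP GL7+ TFH against Treg and from -0.77 to 0.51 in GL7+ against GL7- TFH. In PP against pLN it moved from -0.51 to 0.63 in Treg, from -1.13 to 0.14 in GL7+ TFH and from -1.51 to 0.32 in TFR, and in d25 against d12 from -0.48 to 0.58 in TFH and from -0.28 to 0.25 in TFR. In the tissue differences it moved from -1.57 to 0.26 for TFR against Treg and from -1.01 to 0.82 for TFR against GL7+ TFH. Without slide 4 Gata3 turned to 0.020 in GL7+ against GL7- TFH, to 0.14 in PP against pLN GL7+ TFH, to 0.32 in PP against pLN TFR and to 0.18 in the tissue difference of TFR against GL7+ TFH, and with scaling alone Gata3 turned to -0.13 in PP against pLN Treg and Il4 to -0.11 in PP against pLN GL7+ TFH.

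The methods' t-test of GL7+ against GL7- TFH cells gave 556 of 22264 probes below their threshold, 1 after Benjamini-Hochberg adjustment, and 0 of the 4 members. A second probe per member was not run because each member has 1 probe. The labels carry no replicate numbers, so fits were paired by slide: with slide as a fixed block, the count of members called in each comparison within a tissue and in the tissue differences was the same as without it, except 3 in place of 2 for pLN TFR against Treg.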
